A study of Mus musculus with 12 samples.

Results

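Coelomic epithelial progenitors of the +KTS KO fetal mouse gonad were taken as the cells that carried the surface marker Upk3b together with genes of the early gonadal epithelium. In the 4 +KTS KO libraries, a cell was chosen when it had at least 1000 detected genes, at most 10% mitochondrial unique molecular identifiers (UMIs, tags that count each captured RNA molecule once), at least 2 UMIs of Upk3b and at least 2 UMIs of Lhx9, Krt19 and Aldh1a2 together. Cells with more than 1 UMI of Pdgfra, which marks interstitial cells, or with 10 or more UMIs of the germ cell genes Dppa5a, Pou5f1, Ddx4 and Dazl together were left out. The rule chose 2189 of the 30281 +KTS KO cells that passed the first 2 thresholds, out of 83513 such cells in the series. The same thresholds chose 2810 cells in the 4 wild-type (WT) libraries and 4576 in the 4 -KTS KO libraries.

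The coelomic epithelium is the sheet of cells that covers the early gonad. Its cells divide, lose their epithelial contacts and move inward, and their descendants become supporting cells (Sertoli cells in the testis, granulosa cells in the ovary) and other somatic cells of the gonad. The zinc finger protein WT1 is made in these cells in splice variants that do or do not carry the 3 amino acids lysine, threonine and serine (KTS) between zinc fingers, of which the -KTS form binds DNA and acts as a transcription factor and the +KTS form lies largely in nuclear speckles, where splicing factors gather.

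The study profiled single cells of embryonic gonads at E12.0 (23 ± 3 tail somites) of XX and XY embryos on a mixed B6CBAF1/JRj background, in 2 libraries for each of 6 groups. The +KTS KO embryos carried on both alleles a mutated splice donor site of Wt1 intron 9, which removes the +KTS variant, leaves the -KTS variant and gives a higher level of it, so the loss of one form and the rise of the other cannot be told apart. The -KTS KO embryos made the +KTS variant only, and the WT embryos made both. The mutations are carried by every cell of the embryo, not by the epithelium alone, and tail somite stages in the study's sample list were more widely spread among the +KTS KO than the WT libraries, with XY +KTS KO replicate 1 the oldest, and the part of stage in the results was not tested.

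The libraries held 108111924 to 147968666 UMIs over all barcodes, and the chosen cells of a library summed to 7869873 to 27492698 UMIs. In the +KTS KO, the chosen cells numbered 785 and 376 in XX and 464 and 564 in XY. Median depth was 16191 to 23939.5 UMIs per chosen cell in the +KTS KO and 12615 to 18595 in the WT. Libraries shared at most 46 cell barcodes pairwise, 0.451% of the smaller set, and at most 1 among the chosen cells. Levels are given as CPM, a gene's UMIs per 1000000 UMIs of the chosen cells of a library, and the order of values is replicates 1 and 2 of XX and then of XY. XY +KTS KO replicate 1 stood apart in its immediate early genes, with Fos at 285 CPM against 31.3 to 95.9 CPM in the other 3 +KTS KO libraries, and adjusted p-values without it are given beside named genes whose call it ended. Sex labels were met in every library, with Xist at 445 to 512 CPM in XX +KTS KO and at most 0.111 CPM in XY +KTS KO.

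The genes of the rule are described without a test, since they chose the cells. The chosen cells made up 8.20% and 7.62% of the cells kept in the XX +KTS KO libraries and 6.10% and 6.91% in the XY libraries. In the WT they made up 10.0% and 10.1% (XX) and 10.1% and 6.97% (XY), and in the -KTS KO 16.2% to 23.5%. A threshold of 2 UMIs depends on depth, and 573 chosen +KTS KO cells had exactly 2 UMIs of Upk3b while 921 cells met all other conditions with 1. The partner genes bound few cells (19 at a sum of 2, 18 left out at a sum of 1), and Pdgfra bound more (572 chosen cells had 1 UMI, 240 were left out with 2).

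Within the chosen cells, Upk3b, a uroplakin of mesothelial surfaces, was at 250, 235, 234 and 227 CPM in the +KTS KO and at 306, 261, 312 and 266 CPM in the WT. Krt19, a keratin of simple epithelia, was at 105, 103, 105 and 86.7 CPM in the +KTS KO and at 73.4, 74.7, 42.7 and 25.9 CPM in the WT, so that the lowest +KTS KO library stood above the highest WT library. Lhx9, a transcription factor needed for gonad formation, was at 430 to 515 CPM in the +KTS KO and 361 to 567 CPM in the WT, and the groups overlapped. Aldh1a2, which makes retinoic acid, was at 200 to 270 CPM in the +KTS KO and 200 to 221 CPM in the WT.

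Wt1 was read in every library at a like level. It was at 270, 256, 275 and 251 CPM in the +KTS KO, at 251, 258, 202 and 250 CPM in the WT and at 258 to 298 CPM in the -KTS KO. The log2 fold change of +KTS KO over WT was 0.13 ± 0.10 (adjusted p = 0.525 by the quasi-likelihood test of edgeR; errors of log2 fold changes are standard errors throughout). UMIs counted at the 3' end do not separate the splice variants, so this level does not check the mutation itself. Wt1 (chromosome 2, mm10) spans positions 105126529 to 105173616 on the plus strand.

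The label was checked against markers that the rule did not use. Krt7, the remaining marker given for these cells, was at 199 to 239 CPM in the chosen +KTS KO cells and at 2.50 to 5.31 CPM in endothelial cells of the same libraries (cells with at least 5 UMIs of Pecam1, Cdh5 and Kdr together). Of 16 coelomic and mesothelial markers outside the rule, Krt7 included, 14 passed the filter on low counts, and Msln and Dmkn, which mark mature mesothelium, were at most 0.269 CPM in the +KTS KO. Other cell types left little signal. The endothelial list summed to 28.2 to 78.0 CPM against 2629.9 to 2880.4 CPM in the endothelial cells of the same libraries, the germ cell list to 22 to 30 CPM and the immune list to 0.30 to 1.9 CPM. In the +KTS KO, 59 of the chosen cells also met the endothelial threshold. Interstitial genes were not low, at a sum of 757 to 893 CPM (481 to 1526 CPM in the WT), of which Tcf21 alone, a factor also made in the coelomic epithelium, gave 300 to 468 CPM. Haemoglobin and other erythroid genes summed to 122 to 6518 CPM in the +KTS KO and 894 to 2660 CPM in the WT, a spread in which no gene of the list passed the test, and their part in other results was not tested.

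Loss of the +KTS variant was first compared with the WT as the mean of the XX and XY differences. Of 14174 genes tested with edgeR's quasi-likelihood test, 683 passed an FDR of 0.05, 4.82% of all genes tested. Among them 413 were higher in the +KTS KO (2.91%) and 270 were lower (1.9%), and 332 differed by more than 2-fold. Counts of a gene list in this comparison are read against these shares. The libraries of the groups did not overlap for 505 of the 683, and for 10.6% of all genes tested. The median log2 fold change of all genes was -0.00. Without XY +KTS KO replicate 1 the count was 867, and leaving out the other libraries in turn gave 285 to 790, with the lowest count without XX WT replicate 1 and under 400 also without XX WT replicate 2, XX +KTS KO replicate 1 and XY WT replicate 1.

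**Figure D1:**
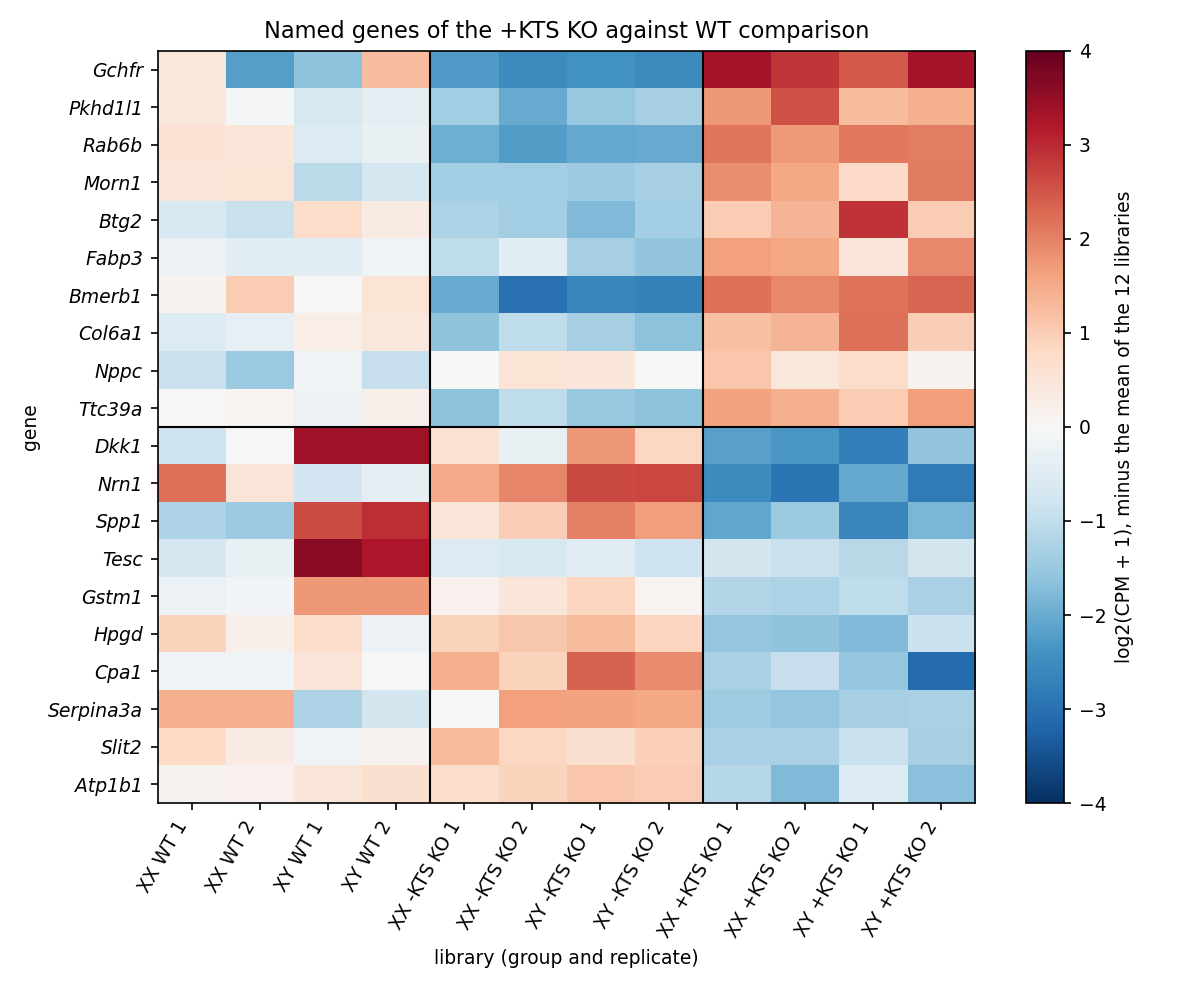
Heat map of the 20 genes with the largest rise or fall in +KTS KO over WT coelomic epithelial progenitors that met the naming rule. Colour is log2(CPM + 1) minus the gene's mean over 12 libraries, and columns are libraries grouped by genotype and sex. Nrn1 and Dkk1, for example, are at most 2.12 and 1.70 CPM in the 4 +KTS KO libraries, and Rab6b is at least 32.8 CPM there against at most 14.5 CPM in the WT.

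Among the genes that rose most were Rab6b, a small GTPase of Golgi transport, Fabp3, a fatty acid binding protein, Col6a1, a collagen VI chain, and Nppc, the precursor of C-type natriuretic peptide. Rab6b was at 45.3, 32.8, 44.1 and 41.9 CPM in the +KTS KO and at 14.5, 13.7, 6.13 and 7.55 CPM in the WT, a log2 fold change of 2.07 ± 0.14 (adjusted p = 4.35e-05). Fabp3 was at 137, 128, 61.7 and 166 CPM against 36.9, 31.5, 32.3 and 38.5 CPM, a log2 fold change of 1.82 ± 0.26 (adjusted p = 0.00332). In both genes every +KTS KO library stood above every WT library. Col6a1 was at 14.3 to 34.2 CPM against 4.22 to 9.41 CPM, and Nppc at 16.5 to 33.7 CPM against 4.69 to 13.6 CPM (log2 fold changes of 1.68 and 1.56). Pkhd1l1 (log2 fold change 2.14), Morn1 (1.96), Bmerb1 (1.75) and Ttc39a (1.53) rose as well, each without overlap between the groups.

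Gchfr, the feedback regulator of GTP cyclohydrolase, had the largest rise by this rule, at 93.8, 69.5, 51.8 and 94.2 CPM in the +KTS KO against 12.3, 1.11, 2.09 and 21.5 CPM in the WT (log2 fold change 3.19 ± 0.62, adjusted p = 0.0152). The groups did not overlap, but Gchfr was at 46.9 to 99.5 CPM in WT and 104 to 140 CPM in +KTS KO endothelial cells, a level that was higher as well. Btg2, an antiproliferative gene induced with the immediate early genes, was at 131, 169, 485 and 131 CPM against 41.0, 34.5, 108 and 82.6 CPM. Its log2 fold change was 1.84 ± 0.31 (adjusted p = 0.00757), and 1.23 without XY +KTS KO replicate 1 (adjusted p = 0.00148).

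Among genes with at least 20 CPM in the higher group and no overlap between libraries, the largest falls were in Dkk1, described below with Wnt signalling, Nrn1, which encodes the membrane-anchored protein neuritin, and Spp1, the secreted phosphoprotein osteopontin. Nrn1 was at 1.24, 0.701, 2.12 and 0.807 CPM in the +KTS KO and at 57.9, 17.5, 6.52 and 8.91 CPM in the WT, a log2 fold change of -3.82 ± 0.44 (adjusted p = 0.00103). Nrn1 lies on chromosome 13, positions 36725361 to 36735131, minus strand. All +KTS KO libraries were below all WT libraries, and within the WT the XX libraries were the higher ones. Spp1 showed the opposite order in the WT, with 57.1 and 72.3 CPM in XY and 3.06 and 2.47 CPM in XX, and was at 0.557 to 2.40 CPM in the +KTS KO (log2 fold change -3.20 ± 0.29, adjusted p = 0.000277). Tesc, a calcium-binding protein first described in the fetal testis, was likewise at 49.0 and 37.6 CPM in XY WT and at 0.892 to 1.46 CPM in the +KTS KO (log2 fold change -2.87, and -1.41 with doublets removed). Cd55, which lay below 20 CPM in the WT mean, fell by 4.07 on the log2 scale.

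Several of the genes that fell were high in WT cells of both sexes. Hpgd, which inactivates prostaglandins, was at 201, 126, 182 and 91.3 CPM in the WT and at 36.0, 35.1, 31.1 and 59.2 CPM in the +KTS KO (log2 fold change -1.90 ± 0.26, adjusted p = 0.0023). Atp1b1, the beta subunit of the sodium pump, was at 120, 122, 153 and 170 CPM against 49.0, 31.2, 74.1 and 33.5 CPM (-1.59 ± 0.22). Neither gene overlapped between the groups. Slit2, a secreted ligand of Robo receptors, was at 14.7 to 29.7 CPM in the WT and 5.92 to 8.36 CPM in the +KTS KO (-1.64 ± 0.18, adjusted p = 0.000835). Cpa1 (log2 fold change -1.82), Serpina3a (-1.66) and Gstm1 (-2.01), which encode a carboxypeptidase, a protease inhibitor and a glutathione S-transferase, completed the 10 largest falls by this rule, of which Cpa1 did not pass with cells thinned to 5000 UMIs (adjusted p = 0.117). For these genes the mean hides a difference between the sexes. Serpina3a was at -3.15 to -2.93 in XX over the other ways of processing. In XY, without XY +KTS KO replicate 1, it was at -0.32, Gstm1 at -3.08 and Cpa1 at -3.83.

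Some genes of the coelomic epithelium and mesothelium were higher in the +KTS KO. Of 14 tested, 5 rose (beside 2.91% of all genes), 0 fell and 9 did not pass, and the median log2 fold change was 0.36 against -0.00 over all genes. Krt7, a keratin of simple epithelia, was at 226, 239, 199 and 218 CPM in the +KTS KO and at 120, 101, 153 and 97.8 CPM in the WT (log2 fold change 0.90 ± 0.14, adjusted p = 0.0057). Podxl, a sialomucin of apical membranes, was at 206, 197, 219 and 196 CPM against 136, 139, 68.0 and 92.5 CPM (0.96 ± 0.13, adjusted p = 0.00201). Krt7 lies on chromosome 15, positions 101411043 to 101430313 of mm10, plus strand. All +KTS KO libraries lay above all WT libraries for both genes, as the plot of coelomic genes by library shows.

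Muc16, a large membrane mucin of mesothelium, was at 26.1, 23.9, 27.8 and 17.7 CPM against 9.34, 14.3, 11.6 and 12 CPM (log2 fold change 1.01 ± 0.18, adjusted p = 0.0152). Tm4sf5 was at 393 to 546 CPM against 232 to 341 CPM (0.67 ± 0.16, adjusted p = 0.0404), and Gpm6a at 5.11 to 13.8 CPM against 1.98 to 5.12 CPM (1.46 ± 0.34, adjusted p = 0.0316), where the lowest +KTS KO value lay within the WT range. Gpm6a did not pass without XY +KTS KO replicate 1 (adjusted p = 0.0708). Other keratins of the same epithelium did not pass. Krt8 had a log2 fold change of 0.21 ± 0.13 and Krt18 of 0.35 ± 0.19, and Upk1b, a second uroplakin, was at 3.46 to 9.22 CPM against 9.70 to 45.3 CPM (-1.51 ± 0.70, adjusted p = 0.255). Genes that vary with Upk3b or Krt19 from cell to cell are not independent of the rule, and how much of these differences comes from the choice of cells was not tested. Over the other ways of processing, 2 to 7 genes of this group rose and 0 to 2 fell. Without XY +KTS KO replicate 1, Cldn15, a claudin of tight junctions, fell (-1.49, adjusted p = 0.016).

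**Figure D2:**
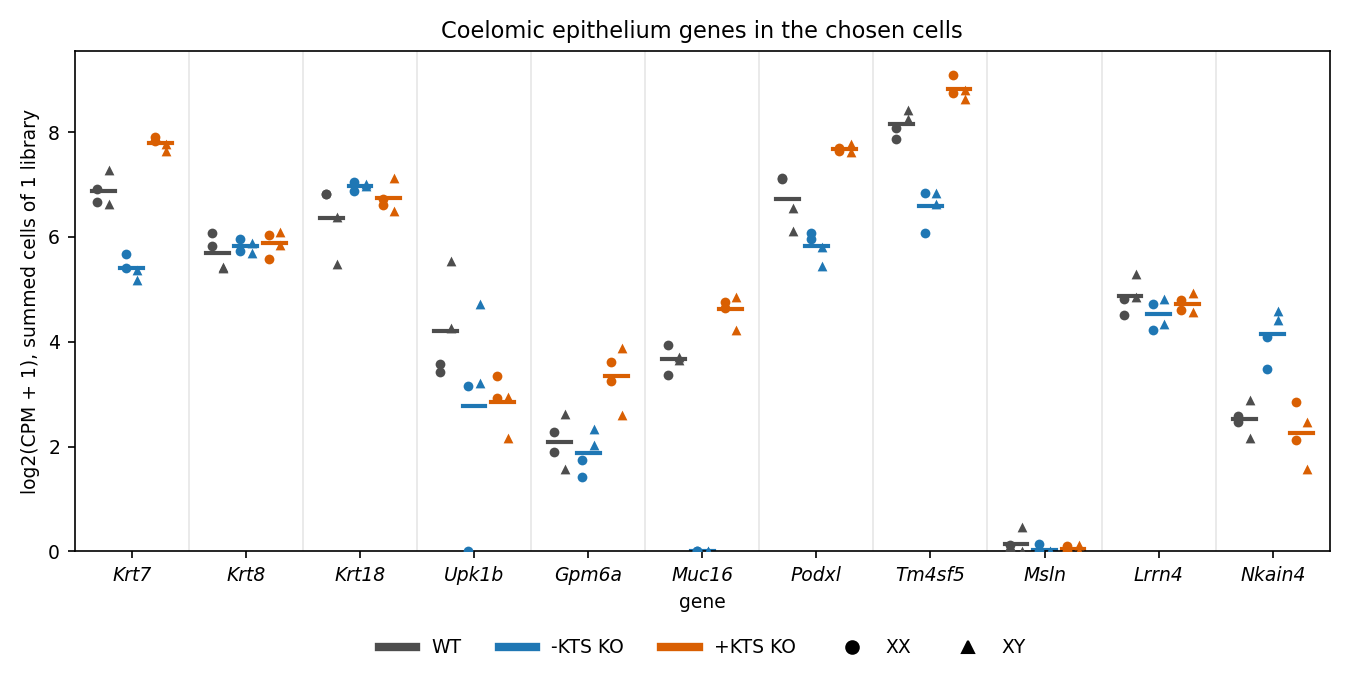
Level of 11 coelomic epithelial and mesothelial genes in the chosen cells of each library, as log2(CPM + 1). Points are libraries (circles XX, triangles XY; grey WT, blue -KTS KO, orange +KTS KO) and bars are the mean of the log2 values of 4 libraries. Krt7, Podxl and Muc16 are higher in every +KTS KO than in every WT library, Krt8 and Krt18 overlap, and Muc16 is at 0 in the -KTS KO.

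The share of cells with a Krt7 UMI differed in the same order when each cell was thinned to 5000 UMIs. It was 61.5% on average in the +KTS KO (58.4% to 63.2% over 4 libraries), 39.2% in the WT (35.0% to 47.4%) and 1.58% in +KTS KO endothelial cells. Without thinning the +KTS KO mean was 90.1% and the WT mean 72.3%. For Muc16 the thinned shares were 10.8% in the +KTS KO (7.46% to 13.7%) and 6.55% in the WT (4.42% to 8.91%), with overlapping libraries, and 0.502% in +KTS KO endothelial cells. Krt7 was thus seen in most of the chosen cells and Muc16 in a minority at this depth.

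Transcription factors that build the bipotential gonad rose where they passed the test, in 3 of 14 tested (beside 2.91% of all genes), and none fell (1.9% of all genes, median log2 fold change 0.29). Gata6 was at 290, 274, 336 and 233 CPM in the +KTS KO and at 212, 222, 132 and 166 CPM in the WT (0.66 ± 0.13, adjusted p = 0.0153), with no overlap. Emx2 was at 200 to 242 CPM against 107 to 214 CPM (0.45 ± 0.12, adjusted p = 0.0471), and the X-linked Nr0b1, which encodes the orphan receptor DAX1, at 25.6 to 48.8 CPM against 15.9 to 38.1 CPM (0.82 ± 0.20, adjusted p = 0.036). Both overlapped between the groups. Nr5a1, the steroidogenic factor SF1, had a log2 fold change of 0.55 ± 0.17 that did not pass (adjusted p = 0.0948), and Gata4 one of 0.06. Emx2 passed under 6 and Nr0b1 under 9 of 17 other ways of processing, and Emx2 did not pass without XY +KTS KO replicate 1 (adjusted p = 0.0692).

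Wnt signalling, in which R-spondins hold Wnt receptors at the membrane and beta-catenin acts in the nucleus, promotes the ovarian path in the early gonad. The ligands Rspo1 and Wnt6 rose. Rspo1 was at 240, 148, 241 and 218 CPM in the +KTS KO and at 139, 116, 97.8 and 83.2 CPM in the WT (log2 fold change 0.97 ± 0.15, adjusted p = 0.00476). Wnt6 was at 149, 91.0, 93.9 and 112 CPM against 75.5, 91.2, 42.7 and 52.2 CPM (0.82 ± 0.16, adjusted p = 0.0152), where XX +KTS KO replicate 2 lay at the level of XX WT replicate 2. Rspo1 (chromosome 4, positions 124986430 to 125009099, plus strand) did not overlap between the groups.

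The secreted inhibitors moved in different directions. Dkk1, which blocks the Wnt co-receptor LRP6, was at 0.803, 0.601, 0.223 and 1.70 CPM in the +KTS KO and at 3.55, 6.92, 82.8 and 82.7 CPM in the WT (-4.60 ± 0.45, adjusted p = 0.000454). It lies on chromosome 19, positions 30545863 to 30549665 of the minus strand. Its fall was the largest among the genes named, without overlap, and in the WT it was far higher in XY than in XX. Wif1, another inhibitor, was low throughout, at 0.866 to 1.74 CPM in the WT and 0.111 to 0.301 CPM in the +KTS KO (-2.58 ± 0.45, adjusted p = 0.00872). Sfrp1, which binds Wnt ligands, rose, at 56.6 to 106 CPM against 33.7 to 50.7 CPM (0.91 ± 0.15, adjusted p = 0.00633).

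In all, 3 of the 28 Wnt genes tested rose and 2 fell in the mean of both sexes, and the median was 0.25. In XY alone 5 rose and 1 fell (median 0.90), beside 1.39% and 1.58% of all genes tested. Those 5 were Rspo1, Wnt6, Sfrp1 and the Wnt response genes Axin2 and Sp5. Axin2 was at 47.7 and 26.4 CPM in XY +KTS KO against 9.15 and 13.4 CPM in XY WT (1.73 ± 0.30, adjusted p = 0.0108), and Sp5 at 103 and 92.1 CPM against 16.7 and 30.9 CPM (2.05 ± 0.48, adjusted p = 0.0449). Axin2 did not pass without XY WT replicate 1 (adjusted p = 0.144), and Sp5 passed under 8 of 13 other ways of processing. Without XY +KTS KO replicate 1, neither Sp5 (adjusted p = 0.0953) nor Sfrp1 (adjusted p = 0.11) passed in XY. In XX no gene of the list passed, and Axin2 was at 26.8 and 21.6 CPM in XX +KTS KO against 27.0 and 38.9 CPM in XX WT (-0.45 ± 0.28). The effect on Axin2 differed between the sexes (-2.18 ± 0.40 as XX minus XY, adjusted p = 0.0337), whereas that on Sp5 did not pass (-2.57 ± 0.66, adjusted p = 0.12). The receptor gene Lgr5 was at 0.301 to 6.24 CPM in the +KTS KO and 1.71 to 6.12 CPM in the WT, and Wnt4 at 39.9 to 76.4 CPM against 10.6 to 110 CPM, and neither passed. The number of Wnt genes that rose in XY ranged from 0 to 11 over the other ways of processing.

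**Figure D3:**
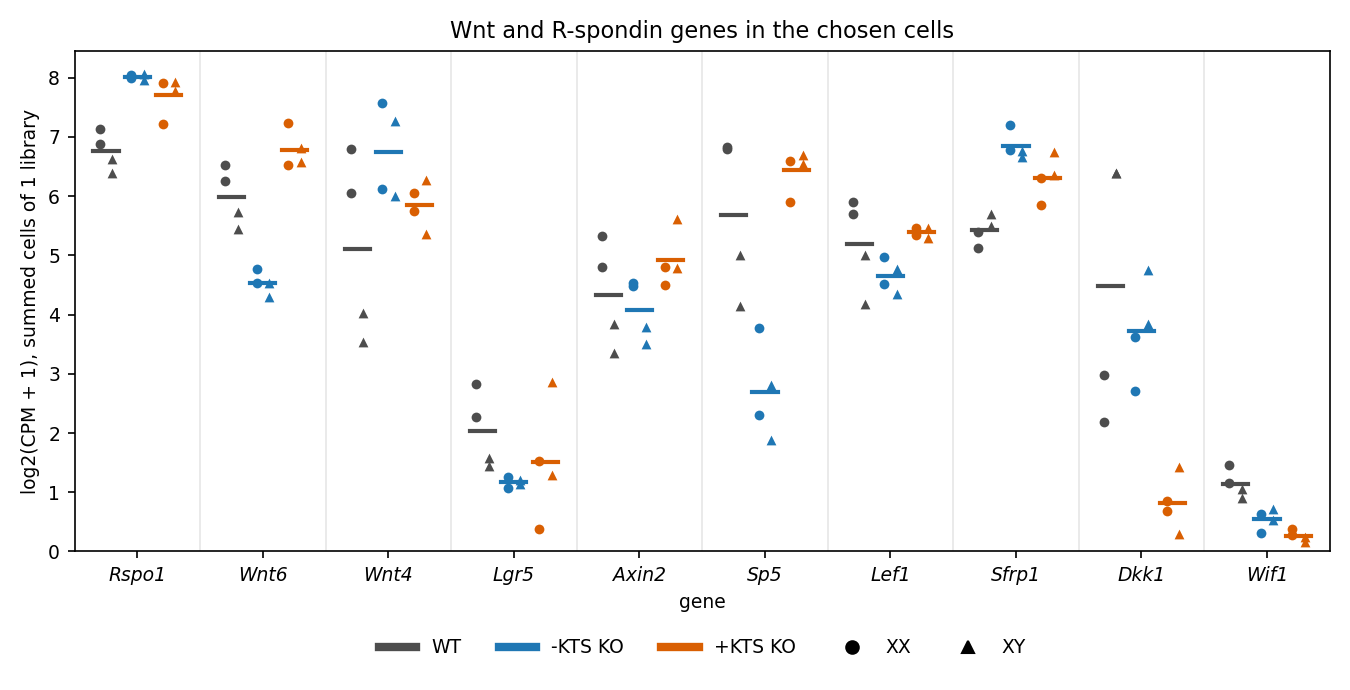
Level of 10 genes of Wnt signalling in the chosen cells of each library, as log2(CPM + 1), with symbols and bars as in the plot of coelomic genes. Dkk1 lies near 0 in all 4 +KTS KO libraries and is highest in the 2 XY WT libraries, and Rspo1 is higher in every +KTS KO than in every WT library.

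The -KTS form of WT1 binds GC-rich motifs of the early growth response type. The letters GCGGGGGCG or GCGTGGGCG were sought on both strands in the 250 bases before each start site of RefSeq (GRCm38.p6), which gave a sequence for 10824 of the 14174 genes tested (76.4%). Either motif was found in 5.89% of these promoters. As fewer than 80% of genes had a sequence, the share was not compared between genes that rose and fell. Of the 60 changed genes of the lists or named by size of change, 48 had a sequence, and 4 of these held a match (Wnt6, Wif1, Slit2 and Ccnb1). The stretches of the first 3 follow, with the match in capitals, on the strand of the gene and without bases inside the annotated gene. Those of Wif1 and Slit2 therefore end before the start site, and their matches open 37 and 48 bases before the end of the stretch. Distances are counted from the first base of the match. A match is a description of the letters and does not show binding.
Wnt6 (chr1:74771642-74771891, plus strand, match of the opposite strand 47 bases before the start): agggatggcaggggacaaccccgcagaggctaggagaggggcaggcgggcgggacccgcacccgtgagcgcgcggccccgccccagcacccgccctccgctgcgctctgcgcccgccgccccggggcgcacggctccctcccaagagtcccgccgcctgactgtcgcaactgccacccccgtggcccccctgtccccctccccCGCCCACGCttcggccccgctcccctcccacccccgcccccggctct
Wif1 (chr10:121033754-121033959, plus strand, match of the opposite strand 81 bases before the start): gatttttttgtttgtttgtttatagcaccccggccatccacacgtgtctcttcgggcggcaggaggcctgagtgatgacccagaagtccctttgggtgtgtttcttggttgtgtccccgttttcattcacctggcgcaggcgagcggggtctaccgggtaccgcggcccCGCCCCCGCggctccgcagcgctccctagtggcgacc
Slit2 (chr5:47982905-47983137, plus strand, match of the same strand 65 bases before the start): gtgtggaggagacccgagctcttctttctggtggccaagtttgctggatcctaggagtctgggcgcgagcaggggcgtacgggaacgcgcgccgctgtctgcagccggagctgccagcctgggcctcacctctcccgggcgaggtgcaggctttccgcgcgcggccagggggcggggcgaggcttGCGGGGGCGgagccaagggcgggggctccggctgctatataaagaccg

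Genes of epithelial junctions, the mesenchymal transition and the basement membrane changed in small numbers. Of 16 junction and transition genes tested, Cdh3 (P-cadherin) rose, at 62.0 to 80.5 CPM against 45.3 to 59.8 CPM (log2 fold change 0.51, adjusted p = 0.0328). Zeb2, a factor that promotes the mesenchymal state, fell, at 19.2 to 25.1 CPM against 22.8 to 46.4 CPM (-0.59, adjusted p = 0.0186), and so did Vim, the mesenchymal filament protein vimentin, at 444 to 534 CPM against 565 to 908 CPM (-0.58, adjusted p = 0.0217). Cdh3 and Vim did not overlap between the groups, Zeb2 did, and the median of the list was 0.05. Snai2 was at 32.4 to 48.7 CPM against 40.3 to 74.6 CPM and did not pass (-0.45, adjusted p = 0.0771). Cdh1 was at most 0.269 CPM in the +KTS KO.

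In the basement membrane and matrix list, 3 of 19 rose and 0 fell (median 0.02), beside 2.91% and 1.9% of all genes. Lama1, a laminin chain, was at 27.5, 26.6, 38.6 and 26.4 CPM against 17.0, 17.3, 11.3 and 16.2 CPM (0.95 ± 0.14, adjusted p = 0.0046). The neighbouring collagen IV genes Col4a1 and Col4a2 were at 80.9 to 94.4 CPM against 36.0 to 69.3 CPM (0.67 ± 0.14) and at 38.7 to 49.5 CPM against 18.6 to 29.8 CPM (0.77 ± 0.15). All 3 were higher in every +KTS KO than in every WT library. In endothelial cells of the +KTS KO, Lama1 was at 1.66 to 6.44 CPM, but Col4a1 was at 740 to 1191 CPM and Col4a2 at 414 to 597 CPM, and the part of free endothelial RNA in the collagen values was not tested. The endothelial list itself had 0 of 6 genes called, as had the interstitial, immune, germ cell and mesonephric lists, while 1 perivascular gene rose (Kcnj8) and 1 fell (Rgs5).

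Signalling genes of other families changed in few members. Among 21 FGF and insulin-like growth factor genes, the ligands Igf2 and Fgf18 rose, whereas Fgf10 (-0.87) and Igf1 (-0.34) did not pass. Igf2 was at 319, 335, 372 and 338 CPM against 187, 241, 161 and 138 CPM (0.93 ± 0.14, adjusted p = 0.00435), and Fgf18 at 25, 35.1, 22.3 and 22.2 CPM against 10.7, 9.08, 14.7 and 7.55 CPM (1.29 ± 0.20, adjusted p = 0.00499). Both groups were apart in both genes, though Igf2 was at 647 to 769 CPM in +KTS KO endothelial cells. Igfbp4, which sequesters insulin-like growth factors, fell, at 108 to 202 CPM against 228 to 265 CPM (-0.85, adjusted p = 0.0124), as did Etv4, a target of FGF signalling, at 1.40 to 6.02 CPM against 3.77 to 28.2 CPM (-1.38, adjusted p = 0.0314).

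Of 28 BMP, activin and TGF-beta genes, 3 rose and 0 fell, beside 2.91% and 1.9% of all genes. Inhbb, a subunit of activin B, was at 35.4, 33.3, 32.4 and 34.0 CPM against 17.4, 20.2, 17.4 and 22.5 CPM (0.81 ± 0.12, adjusted p = 0.00345), and the inhibitory Smad7 at 65.1 to 83.5 CPM against 37.1 to 54.5 CPM (0.65, adjusted p = 0.0056), both without overlap. Bmp4 was at 21.1 to 26.5 CPM against 6.42 to 29.5 CPM, where the low values were those of XX WT (0.87, adjusted p = 0.0471, past the threshold under 7 of 17 other ways of processing, with an adjusted p of 0.0855 without XY +KTS KO replicate 1). Of 18 Notch and hedgehog genes, Heyl (1.81) and Lfng (1.00) rose and 0 fell. None of 13 retinoic acid genes passed by edgeR's quasi-likelihood test, and over the other ways of processing up to 2 rose and up to 3 fell.

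Of cell division genes, those that passed the test fell. Of 20 genes of S phase and mitosis, 0 rose and 2 fell (beside 2.91% and 1.9% of all genes), and the median was -0.36. Cdc20, the activator of the anaphase-promoting complex, was at 82.2, 77.6, 60.3 and 75.7 CPM in the +KTS KO and at 130, 106, 148 and 120 CPM in the WT (-0.77 ± 0.14, adjusted p = 0.0111). Ccnb1, cyclin B1, was at 77.2, 75.8, 59.0 and 67.9 CPM against 113, 90.4, 119 and 98.6 CPM (-0.59 ± 0.12, adjusted p = 0.0193). All +KTS KO libraries were below all WT libraries in both. The S phase genes Mcm2, Mcm5 and Mcm6 had log2 fold changes of 0.21, -0.05 and 0.06. The replication and division genes summed to 1950 to 2398 CPM in the +KTS KO and 2502 to 3079 CPM in the WT. With cells thinned to 5000 UMIs, 25.3% of the +KTS KO cells (19% to 30.8%) and 34.7% of the WT cells (32.6% to 37.6%) had a UMI of Mki67, which encodes the proliferation antigen Ki-67, beside 22.5% and 32.5% of endothelial cells, so the shares differed in the same order in a cell type outside the gonadal epithelium. Free RNA was not separated from RNA of the cell in these shares. Of 11 D cyclins and cell cycle inhibitors, 1 rose, Cdkn2b, which was at 0.200 to 1.34 CPM in the +KTS KO and at most 0.0827 CPM in the WT, and which did not pass without XY +KTS KO replicate 1 (adjusted p = 0.105).

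Targets reported for WT1 and its partners in splicing were read as lists. Of 18 reported targets tested, 4 rose (Igf2, Podxl, Wnt6 and Nr0b1) and 0 fell, with a median of -0.01, beside 2.91% and 1.9% of all genes. The study proposes that -KTS represses Igf2, Sprr2d, Wnt6 and Nr0b1. It reports them lower in XX +KTS KO pre-granulosa cells and higher in XX -KTS KO pre-supporting cells. Here Igf2, Wnt6 and Nr0b1 rose in the +KTS KO, in other cells and as a mean of both sexes, and Sprr2d was not among the genes that passed. Amhr2, which encodes the receptor of anti-Müllerian hormone, was at 172 to 251 CPM against 215 to 246 CPM and did not pass. Of 15 splicing partners and factors, 0 passed, with a median of -0.06 and log2 fold changes between -0.39 (Srsf2) and 0.18 (Wtap). At most 1 of them fell and 0 rose under the other ways of processing. Reads at the 3' end do not show the splicing of other genes.

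Genes that mark the next steps of the supporting lineage rose in part. Of 6 pre-supporting genes tested, 3 rose and 0 fell (median 0.76, beside 2.91% and 1.9% of all genes), namely Wnt6, Nr0b1 and Runx1. Runx1 was at 39.6, 26.8, 30.3 and 33.6 CPM against 23.8, 32.0, 7.84 and 13.9 CPM (0.92, adjusted p = 0.0152), where the XX libraries overlapped. Of 10 pre-granulosa genes, 2 rose and 0 fell (median 0.94), beside the same shares. This list summed to 187 to 321 CPM in the chosen +KTS KO cells and to 199 to 278 CPM in +KTS KO endothelial cells, and to 164 to 315 CPM and 153 to 349 CPM in the WT, and the part of free RNA was not tested. Kitl, whose endothelial level is given below, belongs to this list, so the sums do not speak for each member. Aqp5, a water channel, was at 226, 143, 132 and 156 CPM against 32.1, 37.2, 182 and 102 CPM (1.22, adjusted p = 0.00548), and Cst12, a cystatin, at 13.6, 3.81, 27.6 and 7.35 CPM against 2.48, 3.89, 0.621 and 0.371 CPM (3.25, adjusted p = 0.00905). Both genes overlapped between the groups, Aqp5 through XY WT replicate 1 and Cst12 through the XX libraries. Foxl2, the transcription factor of granulosa cells, was at 1.00 to 4.79 CPM against 0.124 to 2.96 CPM, and Fst at 0.986 to 8.14 CPM against 0.0776 to 65.8 CPM, and neither passed.

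In the list of steroidogenic cells, the steroid enzyme gene Cyp11a1 and Inha, the inhibin alpha subunit, were higher in the summed counts of the chosen +KTS KO cells. Cyp11a1 encodes the enzyme that cleaves the cholesterol side chain. Cyp11a1 was at 18.7, 22.2, 6.69 and 15.8 CPM in the +KTS KO and at 1.74, 1.36, 1.63 and 2.72 CPM in the WT (log2 fold change 3.08 ± 0.31, adjusted p = 0.000621). Inha was at 69.1, 51.1, 26.2 and 61.8 CPM against 12.2, 13.0, 18.9 and 26.7 CPM (1.61 ± 0.23, adjusted p = 0.00339). Cyp11a1 did not overlap between the groups, and Inha overlapped only by the value of XY +KTS KO replicate 1.

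Both genes were also read outside these cells. In endothelial cells, Cyp11a1 was at 7.26 to 22.5 CPM in the +KTS KO and 0.319 to 2.84 CPM in the WT, a range like that of the chosen cells, and 3.79% of the chosen and 3.82% of the endothelial +KTS KO cells had a Cyp11a1 UMI at 5000 UMIs per cell (9.62% of the chosen cells without thinning). This share was not above that of endothelial cells and is not read as expression by the chosen cells, and the part of free RNA was not tested. Inha was at 8.92 to 39.6 CPM in +KTS KO and 5.42 to 25.2 CPM in WT endothelial cells, which overlap, and its thinned shares were 14.0% in the chosen cells and 4.69% in the endothelial cells (34.0% of the chosen cells without thinning). Of 4 genes tested in the list of steroidogenic cells, Star, the cholesterol transporter of the mitochondrion, did not pass (13.2 to 17.1 CPM against 7.17 to 23.6 CPM).

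The sexes were then taken separately. In XX, 169 genes were higher and 96 lower in the +KTS KO than in the WT (1.19% and 0.677%), together 1.87% of 14174, and libraries did not overlap between XX +KTS KO and XX WT for 47.9% of all genes tested. In XY, 197 were higher and 224 lower, together 2.97%, and libraries of 40.6% of all genes tested did not overlap between XY +KTS KO and XY WT. The comparisons share no library, but both come from 1 fit in which the filter and the estimate of spread used all 12 libraries, so they are not independent. Both called 56 genes, 21.1% of the XX and 13.3% of the XY calls, of which 48 moved in the same and 8 in opposite directions. Counts depended on the WT libraries, and fell to 30 and 33 in XX without XX WT replicate 1 or 2, to 75 without XX +KTS KO replicate 2 and to 129 without XX +KTS KO replicate 1, and in XY to 61 without XY WT replicate 1 and 240 without XY WT replicate 2.

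In XX, the genes that rose most included Mgam, Cbln1, Hsd11b2, Olfml3, Lmo1 and Tagln. Mgam, which encodes the intestinal enzyme maltase-glucoamylase, was at 18.2 and 24.1 CPM in XX +KTS KO against 0.496 and 1.05 CPM in XX WT (log2 fold change 4.71 ± 0.47, adjusted p = 0.0011). Cbln1, a secreted cerebellin, was at 28.5 and 32.1 CPM against 2.23 and 1.85 CPM (3.89 ± 0.49, adjusted p = 0.00287). In XY WT Cbln1 was at 50.7 and 45.2 CPM, so that the XX +KTS KO cells stood between the sexes of the WT. The falls included Kitl, the ligand of the receptor Kit, at 29.5 and 20.2 CPM against 95.3 and 144 CPM (-2.26 ± 0.48, adjusted p = 0.0385), Ifitm3 at 16.0 and 12.8 CPM against 55.1 and 50.5 CPM (-1.87 ± 0.17, adjusted p = 0.00104) and Serpina3a at 16.2 and 14.9 CPM against 123 CPM in each XX WT library. Leaving out 1 library ended the call of Cbln1 (adjusted p up to 0.0614), Olfml3 (0.0532), Lmo1 (0.0944), Hsd11b2 (0.171), Tagln (0.188) and Serpina3a (0.0636), but not that of Mgam or Ifitm3. Kitl was at 153 to 222 CPM in +KTS KO endothelial cells, and its fall did not pass with doublets removed or with any of the 4 XX libraries left out (adjusted p up to 0.258).

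In XY, genes of the Sertoli cell programme fell in the summed counts. Of 9 in the list, 6 were lower (beside 1.58% of all genes) and 0 higher, and the median log2 fold change was -2.73. Sox9, the transcription factor of Sertoli cells, was at 10.3 and 4.03 CPM in XY +KTS KO against 39.6 and 53.7 CPM in XY WT, and Amh, the anti-Müllerian hormone, at 2.90 and 1.43 CPM against 37.5 and 15.2 CPM (-3.64 ± 0.47, adjusted p = 0.00292). The signal Dhh was at 0.892 and 1.43 CPM against 12.6 and 9.53 CPM, and Aard, Mro and Cst9 fell as well. With doublets removed, the log2 fold change of Amh was -1.13 and did not pass (adjusted p = 0.318), nor did Mro without XY +KTS KO replicate 1 (adjusted p = 0.0757). In XX, Amh was at 2.70 and 2.40 CPM in the +KTS KO against 0.165 and 0.247 CPM in the WT (3.55 ± 0.71, adjusted p = 0.029), a rise that passed under 5 of 12 other ways of processing. Over the other ways of processing, 2 to 8 of the list were lower. Ptgds, at 20.5 and 4.03 CPM against 64.9 and 21.3 CPM, did not pass. The list summed to 254 to 336 CPM in XY WT, 29.2 to 31.3 CPM in XX WT and 38.9 to 70.7 CPM in the 4 +KTS KO libraries.

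These transcripts were also present outside the chosen cells of the XY WT libraries. The Sertoli list summed to 8.92 to 172 CPM in WT endothelial cells and to 9.54 to 28.7 CPM in +KTS KO endothelial cells. These ranges overlap, but each pools XX and XY libraries, so they do not compare XY +KTS KO with XY WT. The highest WT value lay above every +KTS KO value. The part of free RNA was not tested. The other large falls in XY were Dkk1 (-6.32), Spp1 (-5.77), Etv2 (-5.52), Tesc (-5.19) and Cd55 (-4.95). Etv2 did not pass without XY WT replicate 1 (adjusted p = 0.0779), and Tesc was at -2.60 with doublets removed. Cd55, a complement regulator of the cell surface, was at 0.657, 1.10, 0.780 and 0.896 CPM in the +KTS KO and at 6.36, 9.08, 27.9 and 24.6 CPM in the WT, and thus was lower in every +KTS KO library of either sex. Etv2 was at 22.9 and 37.2 CPM in XY WT but at 76.8 to 211 CPM in WT endothelial cells, which it marks.

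The effect of the +KTS KO differed between XX and XY for 110 of 13662 autosomal genes (0.805%), 79 with the greater log2 fold change in XX (0.578%) and 31 in XY (0.227%). The number was 28 without XY WT replicate 1, 30 and 37 without XX WT replicate 1 or 2, 42 without XX +KTS KO replicate 2, 73 without XX +KTS KO replicate 1 and 248 without XY +KTS KO replicate 2. Sertoli genes held 5 of the 79, from a list of 9. Axin2, Fgfr2 and Igfbp2, an insulin-like growth factor binding protein, were among the 31. Igfbp2 was at 467 and 272 CPM in XX and 608 and 518 CPM in XY +KTS KO against 551 and 574 CPM in XX and 187 and 243 CPM in XY WT. Hes1, a transcriptional repressor downstream of Notch, was at 71.5 and 85.3 CPM in XX +KTS KO against 29.0 and 24.2 CPM in XX WT, and at 97.1 and 61.1 CPM in XY +KTS KO against 126 and 91.0 CPM in XY WT.

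**Figure D4:**
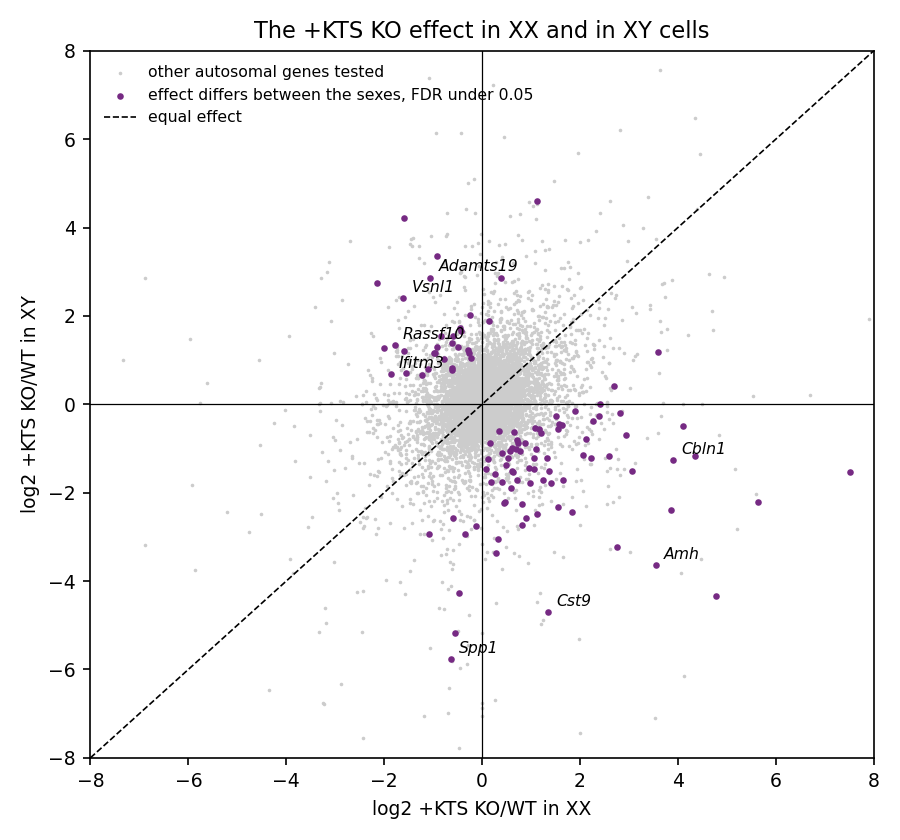
Log2 fold change of +KTS KO over WT in XX (horizontal) and XY (vertical) coelomic epithelial progenitors, 1 point per autosomal gene. Purple points are genes, of 110 in all, whose effect differed between the sexes at an FDR of 0.05. Grey points are the other genes, and the dashed line marks equal effects. Spp1, for example, lies at -0.64 in XX and -5.77 in XY.

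The chosen cells of XX and XY embryos differed in the WT, and in the +KTS KO no gene passed. In the WT, 190 autosomal genes were higher in XX (1.39%) and 384 in XY (2.81%), together 4.2% of 13662. In the +KTS KO, edgeR's quasi-likelihood test called 0 genes (0%), with a smallest adjusted p of 0.0714, while 344 genes had an unadjusted p under 0.05 and DESeq2 called 6. Leaving out XX +KTS KO replicate 1, XY +KTS KO replicate 1 or XY +KTS KO replicate 2 gave 4, 3 and 7 calls, and without a filter on low counts the number was 151. In the WT the count was 176, 123 and 144 without XX WT replicate 1, XX WT replicate 2 and XY WT replicate 1, and 367 without XY WT replicate 2.

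The genes that differed between the WT sexes were read in the +KTS KO libraries. The contrast that chose them was between WT libraries, but the filter and the estimate of spread used all 12 libraries, the +KTS KO included. The 190 genes higher in XX WT had a median log2 XX over XY ratio of 1.47 in the WT and 0.02 in the +KTS KO, where 53.2% of them were above 0. The 384 genes higher in XY WT had medians of -1.76 and 0.02, with 53.4% above 0. Over all 13662 genes, 53.6% were above 0 in the +KTS KO with a median of 0.02. The interquartile range in the +KTS KO was -0.27 to 0.17 for the genes higher in XX WT and -0.24 to 0.24 for those higher in XY WT, wider than the -0.15 to 0.15 of all genes. The WT ratios chose the genes and are given as a description.

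**Figure D5:**
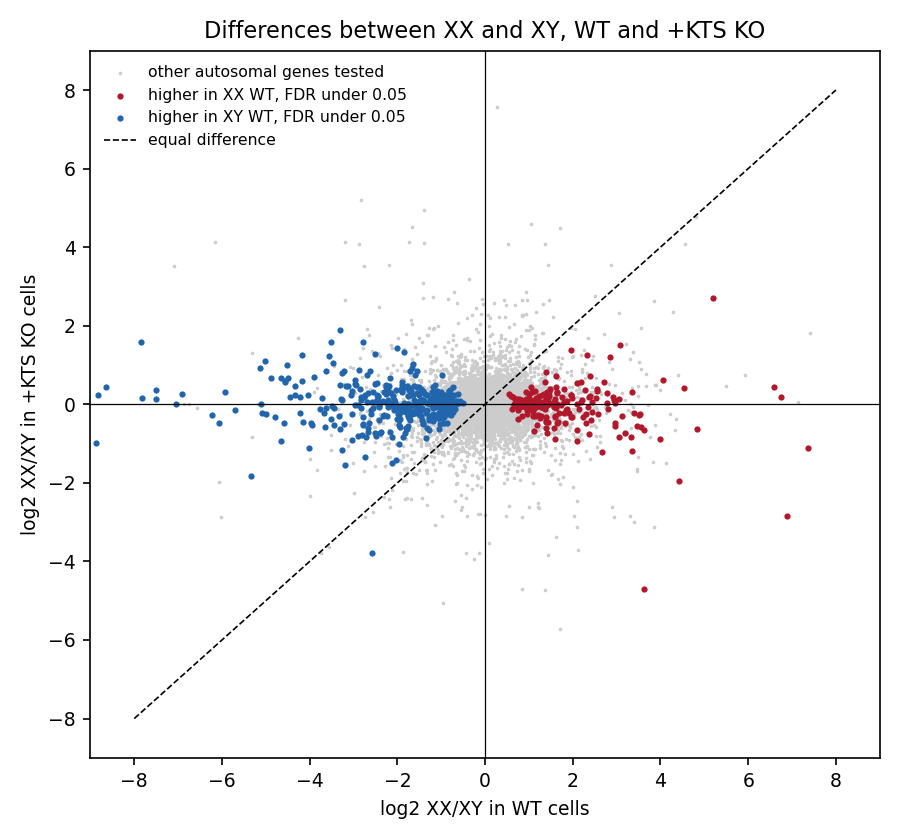
Log2 ratio of XX to XY in WT (horizontal) and in +KTS KO (vertical) coelomic epithelial progenitors, 1 point per autosomal gene. Red and blue points are genes, of 574 in all, that were higher in XX or in XY WT. Grey points are the other genes, and on the dashed line both ratios are equal. The coloured points spread along the horizontal axis and lie near 0 on the vertical axis, with a median of 0.02 for either set.

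The values of single genes follow. Fst, follistatin, was at 39.8 and 65.8 CPM in XX and 0.0776 and 1.24 CPM in XY WT, and at 7.95 and 3.61 CPM in XX and 8.14 and 0.986 CPM in XY +KTS KO. Wnt4, a Wnt ligand of the early ovary, was at 65.0 and 110 CPM in XX and 10.6 and 15.3 CPM in XY WT, and at 64.9 and 52.9 CPM in XX and 76.4 and 39.9 CPM in XY +KTS KO. The XY +KTS KO cells thus lay below XX WT for Fst. For Wnt4, XY +KTS KO replicate 1 lay between the XX WT values and XY +KTS KO replicate 2 between those of XY WT and XX WT. Vsnl1, a neuronal calcium sensor, was at 20.5 and 22.3 CPM in XX and 1.71 and 2.23 CPM in XY WT, and at 3.91 to 10.7 CPM in all 4 +KTS KO libraries. Ren1, renin, was at 46.7 and 5.82 CPM in XY WT, at 0.865 and 1.07 CPM in XX WT and at 6.06 to 12.8 CPM in the +KTS KO.

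The chosen cells of the 2 mutants were compared with each other as the mean of both sexes. Of 14174 genes, 1946 were higher in the +KTS KO and 1734 in the -KTS KO, together 26% (13.7% and 12.2%). This comparison uses the same +KTS KO libraries as those above. Muc16 was read in 1044 UMIs over the +KTS KO cells and in 0 of 97440579 UMIs of the -KTS KO cells, which is at least 772-fold higher in the +KTS KO against a floor of 3 counts over the -KTS KO group. Aqp5 was at 132 to 226 CPM in the +KTS KO and 0.998 to 1.73 CPM in the -KTS KO (log2 fold change 6.92 ± 0.26, adjusted p = 3.51e-08), and Lbhd2 at 32.9 to 57.6 CPM against 0.142 to 0.511 CPM (7.03 ± 0.31). No library of one mutant overlapped with the other in these 3 genes, as for 28.4% of all genes tested.

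Higher in the -KTS KO were Cd55 at 55.7 to 134 CPM (-6.62 ± 0.19 as +KTS KO over -KTS KO, adjusted p = 8.38e-09), Nrn1 at 36.0 to 81.3 CPM (-5.60 ± 0.42) and Wfdc10 at 89.6 to 152 CPM against 1.90 to 6.31 CPM (-5.22 ± 0.27). The WT stood between the mutants for Cd55, whereas for Nrn1 XX WT replicate 1 lay within the -KTS KO range. It stood beside the +KTS KO for Wfdc10, at 0.543 to 5.56 CPM. Of the 14 coelomic genes, 6 were higher and 3 lower in the +KTS KO (median 0.24, all genes -0.01), beside 13.7% higher and 12.2% lower of all genes tested. Krt7 was at 35.2 to 50.3 CPM in the -KTS KO (log2 fold change 2.40 ± 0.15). Of the 18 reported WT1 targets, 8 were higher and 1 lower, with a median of 1.06, beside the same shares. Of 20 S phase and mitosis genes, 9 were higher and 0 lower, and of the 15 splicing partners 0 passed, with a median of -0.04, again beside these shares.

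To see which changes were particular to the epithelium, the +KTS KO effect was compared with that in Pdgfra-positive cells of the same libraries, which had at least 2 UMIs of Pdgfra and 0 of Upk3b. The cells of the 2 classes come from the same libraries, so the library was kept as a block. Of 14314 genes, 377 differed in effect (2.63%), 215 with the greater log2 fold change in the coelomic epithelial progenitors (1.5%) and 162 in the Pdgfra-positive cells (1.13%). The log2 ratio of the classes did not overlap between +KTS KO and WT libraries for 4.93% of all genes tested. The difference did not pass for Krt7 (0.19 ± 0.19), which was at 12.4 to 18.0 CPM in Pdgfra-positive +KTS KO cells and 7.29 to 14.3 CPM in Pdgfra-positive WT cells, nor for Podxl (-0.04 ± 0.11) or Igf2 (-0.07 ± 0.14). Of 28 Wnt genes, 2 had the greater log2 fold change in the epithelium (Wnt6 and Lgr5) and 2 the lower (Fzd2, -0.43, and Nkd1, -1.09). For Wnt6 the difference was 0.50 ± 0.09 (adjusted p = 0.0141). The effect on the receptor gene Lgr5, which did not pass in the epithelium, also differed (3.72 ± 0.46, adjusted p = 0.00173), with Lgr5 at 0.0620 to 0.480 CPM in Pdgfra-positive +KTS KO cells and 2.50 to 9.84 CPM in Pdgfra-positive WT cells.

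The fall of Nrn1 was greater in the epithelium (-2.21 ± 0.21 as the difference of log2 fold changes, adjusted p = 0.000326). In Pdgfra-positive cells it was at 3.44, 3.84, 6.84 and 2.77 CPM in the +KTS KO and 45.8, 16.1, 4.47 and 5.22 CPM in the WT, so the XY libraries there overlapped. Asb4 and Cdc42ep3, an effector of the GTPase Cdc42, fell in the epithelium (7.69 to 18.1 CPM against 13.1 to 46.9 CPM, and 8.90 to 20.2 CPM against 31.2 to 45.9 CPM). In Pdgfra-positive cells their levels overlapped, at 10.5 to 34.2 CPM against 13.4 to 26.2 CPM and at 12.3 to 21.4 CPM against 11.7 to 24.9 CPM (differences of -1.33 ± 0.15 and -1.32 ± 0.15, each with an adjusted p of 0.000735). Ggct was at 26.3 to 48.4 CPM against 18.0 to 25.4 CPM in the epithelium and at 8.68 to 10.6 CPM against 8.80 to 16.2 CPM in Pdgfra-positive cells (1.20 ± 0.17). Ezr, which encodes the membrane linker ezrin, also had the greater log2 fold change in the epithelium (0.72 ± 0.12, adjusted p = 0.00735), as the only one of the 14 coelomic genes. Ezr itself did not pass against the WT in the epithelium. Of 20 S phase and mitosis genes, 6 had the lower effect in the epithelium, Cdc20 (-0.37 ± 0.07) and Ccnb1 (-0.32 ± 0.07) among them, and 0 the higher. Of all genes tested, 1.13% had the lower and 1.5% the higher effect there.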

How the data were processed

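Single cells of 12 libraries (2 of each of 6 groups) had been sequenced with the 10x Genomics 3' chemistry, after dissociation of the gonads with trypsin and EDTA. The kit version differs between the labels and the study's methods. The authors aligned the reads to mm10 with Cell Ranger 6.0 and deposited filtered matrices of raw counts, whole numbers of UMIs for each of 32285 gene identifiers and each cell barcode. Gene positions were added from GENCODE M21 (GRCm38) for 32235 of them.

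From these counts, the chosen cells of each library were summed, so that the library and not the cell was the replicate. Whether the libraries came from separate litters is not given in the sources used here, so p-values measure the spread between libraries. Sums were tested with edgeR 4.0.16 in R 4.3.3 (TMM scaling, filterByExpr, quasi-likelihood test), in 1 fit over the 6 groups, with Benjamini-Hochberg adjustment and an FDR of 0.05. The 9 genes of the rule were left out of the tests. Standard errors were approximated from the fold change and its F statistic. Comparisons between the sexes used autosomal genes. The comparison with Pdgfra-positive cells (at least 1000 genes, at most 10% mitochondrial UMIs, Pdgfra at 2 or more, Upk3b at 0, germ cell sum under 10) used the 8 WT and +KTS KO libraries with the library as a block. Endothelial cells had Upk3b and Pdgfra at 0 and the same other limits. Shares of cells with a UMI were taken after thinning to 5000 UMIs per cell, which left out 32 chosen +KTS KO cells. Doublets were kept in the main values, and an alternative removed the highest Scrublet scores (0.8% per 1000 barcodes), 166 of the chosen +KTS KO cells.

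Named genes were the 10 that rose and 10 that fell most (5 and 5 outside the comparison of +KTS KO with WT) among those past the threshold, with at least 20 CPM in the higher group and no overlap of libraries. For the difference between the sexes, no overlap means that all log2 differences between +KTS KO and WT libraries of XX lay on one side of those of XY, and for Pdgfra-positive cells that the log2 ratio of the classes within a library did not overlap between the genotypes. Predicted genes were counted but not always named, and members of 25 lists (331 genes) were named where they passed, with some that did not. The cell rule, members and lists were chosen with earlier results of these data known. Genes named outside this rule were chosen after their values were seen. The alternatives were DESeq2 1.42.0, RLE scaling, no filter on low counts, the 8 libraries alone, a replicate block, leaving out each library, other cell rules, thinning and removal of doublets. The fits were tested on simulated data. Software further included Python 3.11.15, numpy 2.4.6, pandas 2.3.3, scipy 1.17.1 and scanpy 1.11.5.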

Additional observations from a re-analysis of the deposited data

Results flagged for a closer look

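The effect of the +KTS KO in the chosen cells differed between the sexes for 110 autosomal genes, and the 10 with the largest differences are given here as the log2 fold change in XX minus that in XY (edgeR's quasi-likelihood test). Higher in XX were Amh (7.19), Cst9 (6.05), Cbln1 (5.16), Spp1 (5.13) and the predicted gene Gm2694 (5.52), which overlaps Cbln1 on the other strand so that their values are not independent. Gm2694 was at 93.4 and 103 CPM in XX +KTS KO against 4.96 and 4.63 CPM in XX WT. Lower in XX were Vsnl1 (-4.02), Adamts19 (-3.93), Rassf10 (-3.12), 6330411D24Rik (-2.80) and Ifitm3 (-2.55). Adamts19 was at 11.1 and 10.3 CPM in XX and 29.1 and 7.08 CPM in XY +KTS KO, against 20.3 and 24.4 CPM in XX and 2.79 and 1.98 CPM in XY WT. Rassf10 was at 9.92 and 7.81 CPM in XX and 18.7 and 11.6 CPM in XY +KTS KO, against 22.2 and 39.2 CPM in XX and 6.21 and 5.69 CPM in XY WT. In all 10 genes the difference between the sexes was tested itself. That for Amh passed under 15 of 16 other ways of processing. The mean share of chosen WT cells with an Amh UMI was, as given above, not above that of endothelial cells.

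The effect also differed from that in Pdgfra-positive cells of the same libraries, and the 10 genes named by the rule are given as the log2 fold change in the chosen cells minus that in Pdgfra-positive cells. It was greater for Tdh (1.69), Tcim (1.36), Gadd45a (1.22), Ggct (1.20) and Uchl1 (1.12). In that order, the log2 fold change in the chosen cells alone was 0.15, 0.295, 0.67, 1.04 and 0.71 without XY +KTS KO replicate 1. Uchl1, a ubiquitin hydrolase, was at 37.3 to 44.4 CPM in the +KTS KO and 14.1 to 32.9 CPM in the WT in the chosen cells, and at 4.35 to 6.10 CPM and 2.46 to 10.3 CPM in Pdgfra-positive cells. Tcim was at 34.5 to 46.7 CPM in +KTS KO and 55.9 to 108 CPM in WT Pdgfra-positive cells. The difference was negative for Nrn1 (-2.21), Krt14 (-1.78), Asb4 (-1.33), Cdc42ep3 (-1.32) and Mgp (-1.10). In the chosen cells alone, these were at -4.21, 0.26, -1.385, -1.39 and 0.67 without XY +KTS KO replicate 1. Mgp, matrix Gla protein, was at 41.8 to 57.4 CPM in +KTS KO and 11.8 to 17.4 CPM in WT Pdgfra-positive cells, and at 19.1 to 31.6 CPM and 6.94 to 25.4 CPM in the chosen cells. Krt14 passed under 7 of 14 other ways of processing.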

How the results depend on the processing

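Leaving out each library of a comparison gave 285 to 867 genes for the mean of both sexes, 30 to 129 for XX, 61 to 631 for XY, 28 to 248 for the difference between the sexes, 0 to 7 for XX against XY in the +KTS KO, 123 to 367 in the WT, 2780 to 3998 for +KTS KO against -KTS KO and 166 to 516 for the comparison with Pdgfra-positive cells. In that order, cells thinned to 5000 UMIs gave 331, 128, 183, 43, 1, 259, 2155 and 186 genes, and no filter on low counts gave 1698, 983, 1359, 687, 151, 1217, 4489 and 1015. DESeq2 gave 926, 435, 642, 266 and 6 for the first 5. With the 8 WT and +KTS KO libraries alone, XX gave 162 and the difference between the sexes 68. The cause of these moves was not tested.

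The replicate numbers did not pair the libraries in one consistent way (correlations of deviations from group means between -0.454 and 0.566 over 3960 genes). XY -KTS KO correlated with XX WT (0.566) and XY WT (0.52), while XY +KTS KO was negative with XX WT (-0.454) and XY WT (-0.374). A replicate block gave 680, 219, 401, 104, 0, 524 and 3567 genes for the first 7 comparisons, within 1.5 times the unblocked counts. Such a block does not account for likeness between libraries of different numbers, which was not tested. The mean share of cells that met the rule moved with it, in XX WT from 10.1% to 9.02% (thinned), 8.06% (Upk3b at 3 UMIs or more) and 10.2% (doublets removed), in XX +KTS KO from 7.91% to 6.58% and 6.09% for the first 2, and in XY +KTS KO from 6.50% to 4.6% for Upk3b at 3. Shares of cells with a UMI rose without thinning, for Krt7 from 61.5% to 90.1%, Muc16 from 10.8% to 32.5%, Cyp11a1 from 3.79% to 9.62% and Inha from 14.0% to 34.0%.

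For the named genes, with libraries kept, 179 of 180 values stayed past the threshold in the mean, 174 of 180 in XX and 175 of 179 in XY. With a library left out, 160 of 160 did so in the mean but 41 of 80 in XX and 67 of 80 in XY. No named gene changed direction. Genes near 1 CPM, such as Wif1, rest on few UMIs.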

Other observations

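Glutathione S-transferases were looked at after Gstm1 was seen among the largest falls, so the family was chosen with its values known. Of 21 members tested in the mean of both sexes, 0 were higher and 4 lower in the +KTS KO, with a family median log2 fold change of -0.09 and 1.9% of all genes lower. The 4 were Gstm1, Gstm2, Gstm7 and Mgst1, enzymes that conjugate glutathione to reactive compounds. Gstm2 was at 72.0 to 77.6 CPM in the +KTS KO and at 105, 116, 297 and 256 CPM in the WT (log2 fold change -1.22 ± 0.16, adjusted p = 0.00187 by edgeR's quasi-likelihood test), and Mgst1 at 87.9 to 116 CPM against 169 to 302 CPM (-1.21 ± 0.15, adjusted p = 0.00187). The +KTS KO libraries were below the WT libraries in both genes. In the WT the XY libraries were the higher ones for Gstm1, Gstm2 and Gstm7. The Gstm genes are near-identical neighbours, and reads of one may have been counted for another.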
